A study of Homo sapiens with 15 samples.

Results

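The cancer-testis antigen families are groups of genes whose proteins are made mainly in male germ cells and in tumours. Described here are the genes of the RNA-Seq tables whose symbol begins with MAGEA, MAGEB, MAGEC, GAGE, PAGE, XAGE, SSX, CSAG, CTAG or SPANX followed by a digit, with or without trailing letters. This rule found 67 of 20468 genes, with 13 in MAGEA, 10 in MAGEB, 3 in MAGEC, 12 in GAGE, 6 in PAGE, 5 in XAGE, 11 in SSX, 4 in CSAG and 3 in CTAG. None of the 10 SPANX genes in the tables matched, since their symbols have a letter before the digit. These genes were looked up after their values were seen, and the highest mean among them was 0.0156 RPKM. Of the 67 members, 64 lie on the X chromosome. SSX2IP matched by its symbol alone, lies on chromosome 1 and encodes a protein that binds SSX2. GAGE2B and GAGE2D have gene IDs without an entry in the RefSeq table.

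MM.1S and RPMI8226 are established human myeloma cell lines, and HS5 is an established human stromal cell line. Each myeloma line was cultured for 48 h alone (MONO) or in a transwell system with HS5 cells in the lower chamber. Myeloma cells were placed in both chambers of a well, the upper transwell (TSW) and the lower chamber in contact with HS5 cells (CO). The cells were sorted as CD90- CD38+ before sequencing. MM.1S has 3 libraries per condition and RPMI8226 has 2. TSW against MONO asks about soluble factors that pass the membrane, and CO against TSW about the lower chamber with its stromal cells. TSW and CO also differ from MONO in the myeloma cells of the other chamber and in the medium of both chambers. The labels do not state which TSW and CO libraries share wells. The labels number the replicates without stating that they came from separate cultures, so the p-values measure the spread among these libraries. The libraries hold 9008972 to 19050755 paired-end tags (PETs) on genes. Levels are given as RPKM, which scales PETs by transcript length and library depth, and differences as log2 fold changes of RPKM + 1 from limma. Adding 1 shrinks the log2 fold changes of genes near or under 1 RPKM. A fold threshold is therefore harder to reach for such genes than for abundant ones.

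Cancer-testis genes are kept silent in most adult tissues by DNA methylation of their promoters, and many become active when tumours lose that methylation. Peptides of MAGE-A and NY-ESO-1 proteins are shown to T cells on HLA molecules, which made these antigens targets of immunotherapy trials in myeloma. MAGE proteins share a domain that binds RING-type ubiquitin ligases, while the GAGE, PAGE and XAGE families are small acidic proteins related to one another.

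Few members were on in MM.1S and more were on in RPMI8226. A mean of at least 1 RPKM over the libraries of a line was reached by 2 members in MM.1S, MAGEA1 and SSX2IP, and by 18 of 67 in RPMI8226, a level reached by 10153 and 10319 of all 20468 genes. The other 16 members on in RPMI8226 were CSAG1, CSAG2, CSAG3, CTAG1A, CTAG1B, GAGE10, GAGE12E, GAGE2A, GAGE2B, MAGEA4, MAGEA9, MAGEA9B, MAGEA12, PAGE1, XAGE1B and XAGE1E. Of these 16, 10 had no PET in any MM.1S library, and none of the 16 had more than 3 PETs in a MM.1S library. In MM.1S, 3 members lay from 0.1 to 1 RPKM, MAGEB18, PAGE1 and PAGE2, and 62 lay under 0.1, of which 47 had no PET in any library. In RPMI8226, 9 lay from 0.1 to 1 RPKM, with means from 0.112 for GAGE12J to 0.93 for GAGE2D, and 40 lay under 0.1, of which 22 had no PET. The number on depends on the threshold, with 5 and 27 members at a mean of at least 0.1, 1 and 12 at a mean of at least 5, and 2 and 26 with a PET in every library, for MM.1S and RPMI8226 in turn. No PET was found in either line for 19 members.

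**Figure D1:**
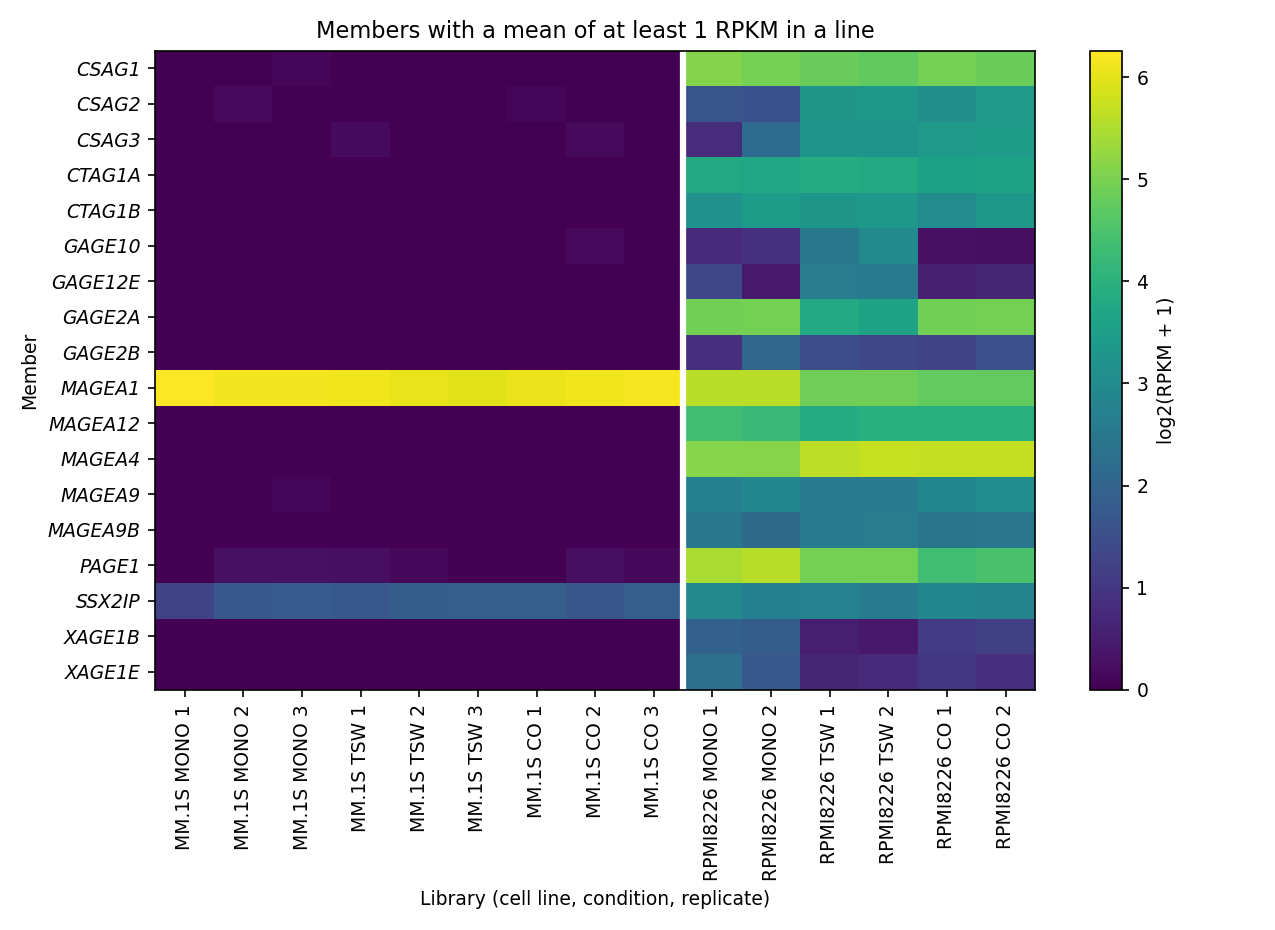
Level of the 18 members with a mean of at least 1 RPKM in a line, as log2(RPKM + 1), by member (vertical axis) and library (horizontal axis), with a white line between the cell lines. MAGEA1 is the brightest member of MM.1S, at 62.5 to 75.7 RPKM, while RPMI8226 has signal for every member shown.

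By family, RPMI8226 had 3 of 4 CSAG members on, 2 of 3 CTAG, 4 of 12 GAGE, 5 of 13 MAGEA, 1 of 6 PAGE and 2 of 5 XAGE. In SSX, 1 of 11 was on, and that was SSX2IP. No MAGEB or MAGEC member was on in either line, although MAGEC1 and MAGEC2 had means of 0.202 and 0.159 RPKM in RPMI8226 and MAGEB18 had 0.228 in MM.1S. Summed over the 67 members, the level was 65.4 to 77.6 RPKM in the MM.1S libraries and 230 to 264 in those of RPMI8226. Without MAGEA1 and SSX2IP the sums were 0.171 to 1.17 and 198 to 211 RPKM, so the ranges of the lines do not overlap. In both tables RPKM is scaled to the PETs of each library, and levels were compared between lines as a description with no test. A gene with 0 PETs in a library may still have a level of up to 3 expected PETs, which is 0.153 RPKM for MAGEA4 and 0.65 RPKM for GAGE2B at the lowest MM.1S depth. These limits cover counting error only.

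Several members are near-identical copies. On the coding sequences, 24 members fell in 9 groups in which each gene shared at least 95% of its bases with another. Of these groups, 5 hold members on in RPMI8226: CSAG2 with CSAG3, CTAG1A with CTAG1B, MAGEA9 with MAGEA9B, XAGE1B with XAGE1E, and 8 GAGE genes. Identity was 99.7% for CSAG2 and CSAG3 and 100% for the CTAG1, MAGEA9 and XAGE1 copies. The share of windows of 75 bases in a transcript that also occur in a transcript of another gene was 94.5% for CSAG2, 91.7% for MAGEA9, 100% for CTAG1B, XAGE1B and GAGE12E, 72.1% for GAGE2A and 30.4% for GAGE10. It was 0% for MAGEA1 and PAGE1, 0.175% for MAGEA12, 0.623% for MAGEA4 and 6.83% for CSAG1. A PET from a shared window has no single origin, so results for copies are given below for each gene and for the summed copies.

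MAGEA1 (gene ID 4100, chrX:153179284-153183880 in GRCh38), the founding member of the MAGE family, was the member with the highest mean in MM.1S. It had 75.7, 70 and 69.6 RPKM in MONO, 69.2, 65.3 and 62.5 in TSW, and 66, 68.8 and 71.2 in CO. The CO libraries overlapped those of both other conditions, and all 3 TSW libraries lay under the lowest MONO library. In RPMI8226 it had 48.2 and 48.2 RPKM in MONO, 28.8 and 29.1 in TSW, and 26.1 and 26.1 in CO. All libraries grown with HS5 were lower than both MONO libraries, with no overlap.

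In MM.1S, limma called 0 of the 2 members tested in each of the comparisons, with 0 at an unadjusted p under 0.05 and 0 by voom on the recovered PETs. Among all 10153 genes tested in MM.1S, 6.48% were called higher and 4.16% lower in TSW than in MONO, 7.13% and 4.65% in CO than in MONO, and 0.374% and 0.0394% in CO than in TSW. A gene was called at an adjusted p under 0.05 with a fold change over 1.5. MAGEA1 in MM.1S had log2 fold changes of -0.13 for TSW and -0.06 for CO against MONO, each with an SE of 0.08. In RPMI8226, limma found MAGEA1 to have fallen in TSW against MONO with a log2 fold change of -0.72 (SE 0.07, adjusted p = 6.23e-06), and in CO against MONO with -0.86 (SE 0.07, adjusted p = 1.17e-06). In limma, CO against TSW gave -0.14 (adjusted p = 0.143). TSW and CO were compared with the same MONO libraries, so their values stand side by side and are not independent. In limma's test of the difference between the lines, MAGEA1 had -0.59 for TSW against MONO (adjusted p = 7.36e-04) and -0.80 for CO against MONO (adjusted p = 4.47e-05), RPMI8226 minus MM.1S. Of 9397 genes tested in both lines, 38.5%, 44.5% and 0.138% passed this test in TSW against MONO, CO against MONO and CO against TSW. For CO against TSW, MAGEA1 gave -0.21 (limma, adjusted p = 0.569).

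SSX2IP, the other member on in both lines, works at centrosomes and cell junctions and is not a germline antigen. It had 1.45 to 2.48 RPKM in MONO, 2.27 to 2.72 in TSW and 2.08 to 2.75 in CO of MM.1S. In RPMI8226 it had 6.74 and 5.56 RPKM in MONO, 5.75 and 5.08 in TSW, and 6.35 and 5.91 in CO. These ranges overlapped in every comparison with MONO. It passed no test in either line. Its difference between the lines was -0.36 for TSW against MONO (limma, adjusted p = 0.179) and -0.20 for CO against MONO (adjusted p = 0.458). Without MM.1S MONO replicate 1 these differences were -0.21 and -0.04.

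In RPMI8226, 18 members could be tested, those with a mean of at least 1 RPKM. Of the 49 members under that level, 27 had a PET and were tested only in the alternative with no filter. There limma called GAGE12D higher and GAGE2D lower in TSW against MONO, CSAG4 lower in CO against MONO, and GAGE2D higher and GAGE12D lower in CO against TSW, while 9.46% of all 16784 genes were called higher and 11.8% lower in TSW against MONO, 11% and 14.9% in CO against MONO, and 1.25% and 1.48% in CO against TSW. GAGE10 and GAGE12E passed the filter only through TSW, and XAGE1B and XAGE1E only through MONO, the conditions in which they are high, so the counts that follow describe the members that passed and support nothing further. In TSW against MONO, limma called 4 higher and 4 lower, while 14.5% of all 10319 genes were called higher and 17.9% lower. In CO against MONO it called 2 higher and 4 lower, with 16.4% and 22.9% of all genes, and in CO against TSW 2 and 2, with 1.9% and 2.39% of all genes. The median log2 fold change of all genes tested was -0.08, -0.09 and -0.04, and median-of-ratios scaling moved it by 0.07, 0.10 and 0.03. That scaling turned the balance of calls over all genes, from 1500 higher and 1852 lower to 1700 and 1560 in TSW against MONO, and from 1693 and 2363 to 2021 and 1904 in CO against MONO. Of the members called among these 18, all but MAGEA1 and PAGE1 belong to a group of copies.

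**Figure D2:**
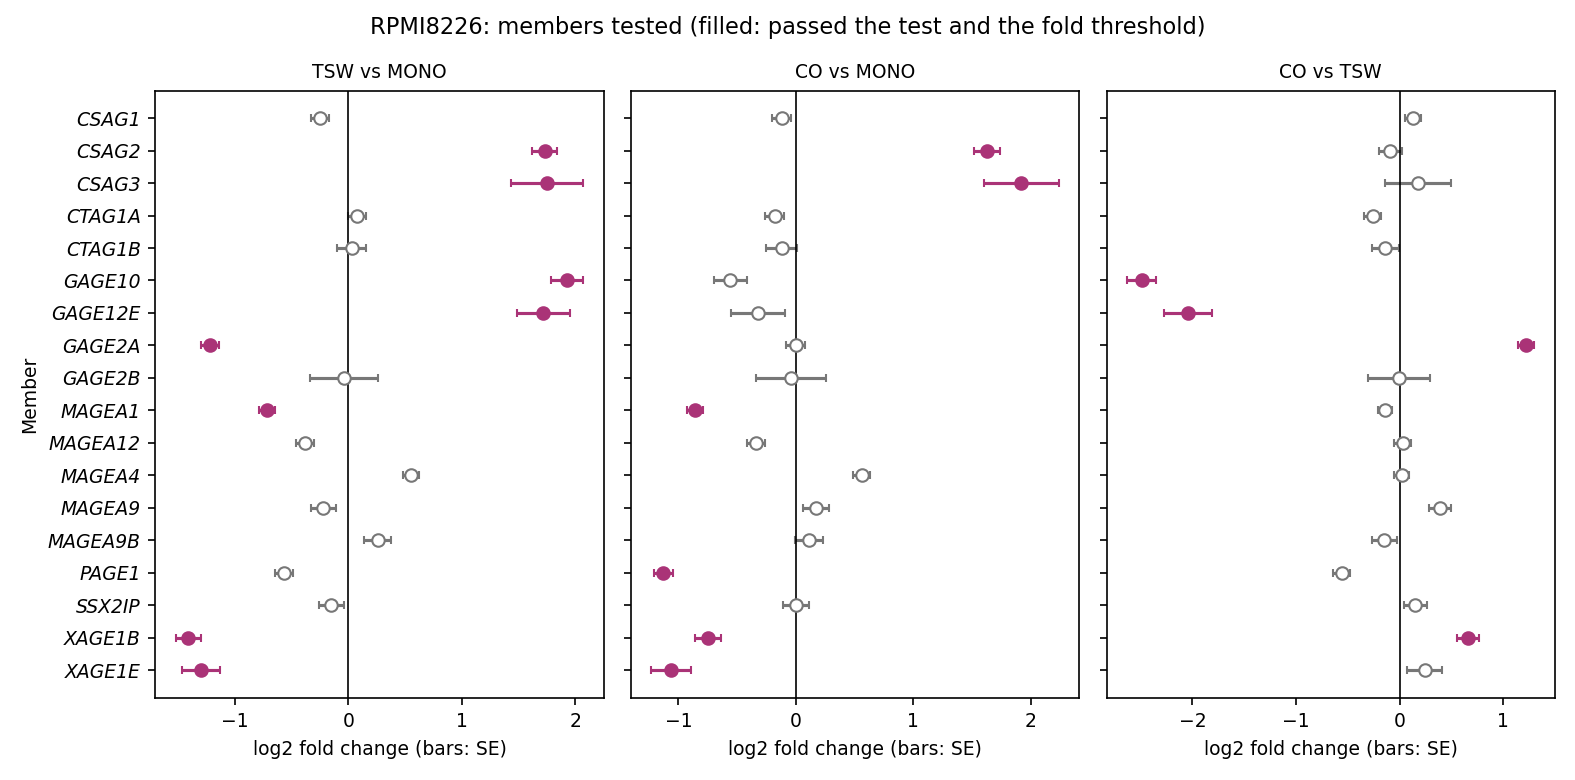
Log2 fold change from limma (horizontal axis, bars 1 SE) of the 18 members tested in RPMI8226 (vertical axis) in the comparisons of TSW with MONO, CO with MONO and CO with TSW. Filled points passed the test and the fold threshold, among them CSAG2 and CSAG3 on the right in both comparisons with MONO, and MAGEA1 and the XAGE1 copies on the left.

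MAGEA4 (gene ID 4103, chrX:151912474-151925170) had the highest mean over the RPMI8226 libraries, 44.8 RPKM, though in MONO it lay below MAGEA1 and PAGE1, and its protein is a target of engineered T cells. It had 34.1 and 33.7 RPKM in MONO, 48.5 and 51.5 in TSW, and 50.4 and 50.7 in CO. All libraries grown with HS5 lay above both MONO libraries, and TSW and CO overlapped. The log2 fold change was 0.55 in TSW (SE 0.07, adjusted p = 4.88e-05) and 0.56 in CO (SE 0.07, adjusted p = 3.03e-05) against MONO by limma, ratios of 1.48 and 1.49 in RPKM that lie under the fold threshold of 1.5. It was called with median-of-ratios scaling, at 0.62 in TSW and 0.68 in CO, with quantile normalization, at 0.61 and 0.71, and in TSW also without RPMI8226 TSW replicate 1, at 0.59. In MM.1S, MAGEA4 had no PET.

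PAGE1 (gene ID 8712, chrX:49687447-49695984), the only PAGE gene on in RPMI8226, moved the other way. It had 43.5 and 46.9 RPKM in MONO, 30 and 30.2 in TSW, and 19.1 and 21.2 in CO of RPMI8226. The conditions are ordered MONO, TSW, CO with no overlap. CO was lower than MONO with a log2 fold change of -1.13 (SE 0.08, limma adjusted p = 5.13e-07), a ratio of 2.24 in RPKM. TSW against MONO gave -0.57 (SE 0.08, limma adjusted p = 1.03e-04) and CO against TSW gave -0.56 (SE 0.08, adjusted p = 0.00105), both under the fold threshold. TSW against MONO was called by voom, at -0.59, and without RPMI8226 MONO replicate 1, at -0.62, and CO against TSW without RPMI8226 CO replicate 2, at -0.63. In MM.1S, PAGE1 had 11 PETs over all 9 libraries.

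Since PAGE1 fell and MAGEA4 lay higher in the same RPMI8226 libraries, the RefSeq sequences before their starts are shown, with CG, the site of DNA methylation, in capitals. Each holds the 250 bases before the most upstream start listed, read 5′ to 3′ on the strand of the gene in GRCh38.p14, at chrX:151912224-151912473 on the plus strand for MAGEA4 and chrX:49695985-49696234 on the minus strand for PAGE1.
MAGEA4: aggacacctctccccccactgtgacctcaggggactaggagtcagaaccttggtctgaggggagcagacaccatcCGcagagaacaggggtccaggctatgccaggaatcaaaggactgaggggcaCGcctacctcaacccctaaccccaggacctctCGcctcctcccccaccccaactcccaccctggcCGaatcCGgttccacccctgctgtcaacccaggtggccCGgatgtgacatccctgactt
PAGE1: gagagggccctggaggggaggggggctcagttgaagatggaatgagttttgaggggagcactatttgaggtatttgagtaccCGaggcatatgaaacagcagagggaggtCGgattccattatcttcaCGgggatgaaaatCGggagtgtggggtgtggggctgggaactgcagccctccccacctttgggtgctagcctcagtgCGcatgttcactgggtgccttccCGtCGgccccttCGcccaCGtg
They hold 6 and 9 CG. The reference holds such windows for 52 of the 67 members, and these held 1 to 26 CG with a median of 8. Over the 35116 windows of the same length in the reference, the median was 11 with quartiles of 3 and 23, and 93.9% held at least 1 CG. Members were counted by 1 window each, while a gene can have several among all windows, so the units differ. CCGGAA, an ETS motif longer than the core GGAA, was searched on both strands. It was found in 3 of the 52 windows (5.77%) and in 14.5% of all windows. The core GGAA occurred 2 times in the MAGEA4 window and 4 times in that of PAGE1, over both strands. Methylation was not measured in these libraries, and the counts describe the letters only.

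CSAG1 (gene ID 158511, chrX:152727484-152733721) and MAGEA12 (gene ID 4111, chrX:152733757-152737669) lie head to head, with the most upstream starts 36 bases apart on opposite strands. CSAG1, for chondrosarcoma-associated gene, had 33.2 and 29.8 RPKM in MONO, 27.3 and 25.4 in TSW, and 29.8 and 28 in CO of RPMI8226. MAGEA12 had 19.3 and 17.9 RPKM in MONO, 13.7 and 14.6 in TSW, and 14.5 and 14.5 in CO. For both genes the TSW libraries lay under the MONO libraries, and the CO libraries did so for MAGEA12. MAGEA12 had log2 fold changes of -0.38 in TSW (SE 0.08, limma adjusted p = 0.00177) and -0.34 in CO (SE 0.08, adjusted p = 0.00282), and CSAG1 had -0.25 (SE 0.08, adjusted p = 0.0215) and -0.12 (SE 0.08, adjusted p = 0.218). None reached the fold threshold.

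**Figure D3:**
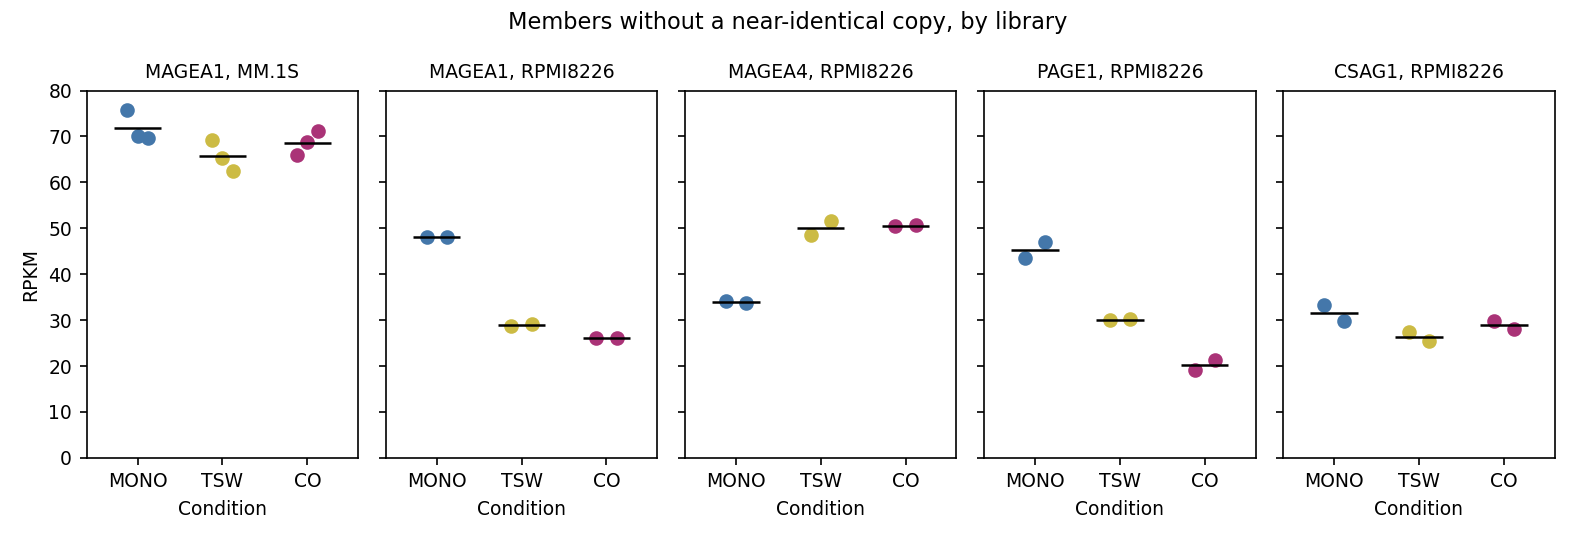
Level in RPKM (vertical axis, from 0) of MAGEA1 in MM.1S and of MAGEA1, MAGEA4, PAGE1 and CSAG1 in RPMI8226 by condition (horizontal axis), with 1 point per library and a line at the mean. In RPMI8226, MAGEA1 and PAGE1 are lower and MAGEA4 higher in TSW and CO than in MONO, with no overlap.

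CSAG2 and CSAG3 are copies with 1 coding difference, A187G from CSAG2 to CSAG3, counted from 1 at the A of the start codon. The bases around it are shown because these genes carry the rise described next, in lower case with the differing base in capitals, 5′ to 3′ on the coding strand from coding base 157 to 217, for CSAG2 (chrX:152708261-152709391 in GRCh38) and CSAG3 (chrX:152753921-152760219, plus strand).
CSAG2: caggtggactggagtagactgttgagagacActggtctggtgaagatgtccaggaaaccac
CSAG3: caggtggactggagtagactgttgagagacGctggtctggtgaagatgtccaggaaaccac
CSAG2 had 2.08 and 1.96 RPKM in MONO, 8.95 and 9.03 in TSW, and 7.5 and 9.33 in CO of RPMI8226. CSAG3 had 0.74 and 3.55 RPKM in MONO, 8.47 and 8.45 in TSW, and 9.39 and 9.98 in CO. For both copies every library grown with HS5 lay above both MONO libraries, and the MONO libraries of CSAG3 differed from each other.

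CSAG2 rose in TSW against MONO with a log2 fold change of 1.73 (SE 0.11, limma adjusted p = 3.22e-07) and in CO with 1.63 (SE 0.11, adjusted p = 3.31e-07). CSAG3 rose with 1.75 (SE 0.32, limma adjusted p = 7.30e-04) and 1.92 (SE 0.32, adjusted p = 3.17e-04). Without RPMI8226 MONO replicate 1 the values of CSAG3 were 1.05 in TSW and 1.23 in CO, and without RPMI8226 MONO replicate 2 they were 2.44 and 2.62. Summed, the copies had 2.82 and 5.52 RPKM in MONO, 17.4 and 17.5 in TSW, and 16.9 and 19.3 in CO. The sum was called at 1.89 in TSW (SE 0.19, limma adjusted p = 1.15e-05) and 1.93 in CO (SE 0.19, adjusted p = 7.09e-06) against MONO, so the rise was also seen when the copies were counted together. CO against TSW gave 0.05 for the sum (limma, adjusted p = 0.879). CSAG2 held 71.4% and 32.9% of the PETs of the pair in the MONO libraries, with Wilson intervals at 95% of 54.9 to 83.7% and 23.9 to 43.5%, and 48.5% and 48.8% in TSW. CSAG4, of the same family, had a mean of 0.782 RPKM, under the filter, with 1.06 and 1.43 RPKM in MONO, 0.572 and 0.96 in TSW, and 0.244 and 0.423 in CO. With no filter it was lower in CO than in MONO at -0.75 (SE 0.14, limma adjusted p = 0.0079).

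XAGE1B (gene ID 653220, chrX:52495808-52500812) and XAGE1E (gene ID 653067, chrX:52512077-52517068) have identical coding sequences of 243 bases, and RefSeq names these IDs XAGE1A and XAGE1B. XAGE1B had 2.84 and 2.61 RPKM in MONO, 0.45 and 0.349 in TSW, and 1.15 and 1.28 in CO of RPMI8226. XAGE1E had 3.93 and 2.26 RPKM in MONO, 0.563 and 0.699 in TSW, and 1.02 and 0.833 in CO. Both copies were lower in every TSW and CO library than in MONO.

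XAGE1B fell in TSW against MONO with a log2 fold change of -1.41 (SE 0.11, limma adjusted p = 1.20e-06) and in CO with -0.75 (SE 0.11, adjusted p = 9.28e-05), and was higher in CO than in TSW with 0.66 (SE 0.11, adjusted p = 0.00193). XAGE1E fell with -1.30 (SE 0.17, limma adjusted p = 7.31e-05) and -1.06 (SE 0.17, adjusted p = 2.56e-04), and its CO against TSW was 0.24 (adjusted p = 0.321). With no filter, at the same fold changes, limma gave adjusted p-values in TSW and CO against MONO of 1.75e-04 and 9.60e-04 for XAGE1B and of 0.00436 and 0.00791 for XAGE1E, and of 0.0131 for XAGE1B in CO against TSW. Summed, the copies had 6.78 and 4.86 RPKM in MONO, 1.01 and 1.05 in TSW, and 2.18 and 2.11 in CO. The sum was called in all comparisons, with -1.73 in TSW (SE 0.13, limma adjusted p = 1.29e-06), -1.10 in CO (SE 0.13, adjusted p = 2.58e-05) and 0.63 in CO against TSW (SE 0.13, adjusted p = 0.00669). The sum rested on 18 PETs in each TSW library, 34 and 38 in CO, and 81 and 69 in MONO.

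The GAGE genes form a tandem array of near-identical copies on the X chromosome, and their proteins are small and disordered. GAGE2A (gene ID 729447, chrX:49589496-49596824), GAGE12E (gene ID 729431, chrX:49551289-49558645) and GAGE10 (gene ID 102724473, chrX:49303646-49319844) are the GAGE genes called among those that passed the filter. Compared with the 348 coding bases of GAGE2A, GAGE12E has 6 substitutions and 3 inserted bases, and GAGE10 has 11 substitutions. The stretch from coding base 140 to 249 of GAGE2A and GAGE10, and 143 to 252 of GAGE12E, shows how few bases tell the copies apart, 5′ to 3′ on the plus strand of GRCh38, with bases that differ between any of them in capitals.
GAGE2A: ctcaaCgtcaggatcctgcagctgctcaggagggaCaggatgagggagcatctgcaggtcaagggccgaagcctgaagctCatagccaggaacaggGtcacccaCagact
GAGE12E: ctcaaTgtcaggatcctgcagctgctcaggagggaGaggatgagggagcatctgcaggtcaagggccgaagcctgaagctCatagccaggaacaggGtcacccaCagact
GAGE10: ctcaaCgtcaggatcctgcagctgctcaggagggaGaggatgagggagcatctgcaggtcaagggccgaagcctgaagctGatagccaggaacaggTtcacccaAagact
Within it, counted from 1 at the start codon of GAGE2A, GAGE12E differs from GAGE2A by C145T and C175G, and GAGE10 by C175G, C220G, G236T and C244A. The windows of 250 bases before the starts of GAGE2A and GAGE12E are identical, and that of GAGE10 differs from them by 28 edits.

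GAGE2A had 29.4 and 30.2 RPKM in MONO, 13.2 and 11.3 in TSW, and 29.7 and 29.8 in CO of RPMI8226. GAGE10 had 0.714 and 0.843 RPKM in MONO, 4.81 and 6.86 in TSW, and 0.218 and 0.19 in CO. GAGE12E had 1.56 and 0.359 RPKM in MONO, 5.26 and 5.04 in TSW, and 0.435 and 0.566 in CO. GAGE2A was low, and GAGE10 and GAGE12E high, in both TSW libraries and in no other. Under the filter, GAGE2D had 1.57 and 1.32 RPKM in MONO, 0.096 and 0 in TSW, and 0.981 and 1.61 in CO, and GAGE12D had 0.137 and 0.115, 1.11 and 1.24, and 0.105 and 0.364, with TSW outside the range of the other conditions for both. GAGE12B and GAGE12C had overlapping ranges in TSW and CO. Between MONO and TSW, GAGE12B did not overlap, with 0.517 and 1.02 RPKM against 0.116 and 0.24. With no filter it had -0.57 there (SE 0.17, limma adjusted p = 0.0398), under the fold threshold. Its means were 0.767 RPKM in MONO and 0.178 in TSW, a fall that -0.57 understates because 1 is added to each level. GAGE12J had 0 PETs in both TSW libraries and 1 to 3 in each of the others. GAGE2B had 0.783 and 3.17 RPKM in MONO, 1.79 and 1.53 in TSW, and 1.44 and 1.87 in CO, with overlap in every comparison.

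In TSW against MONO, GAGE2A fell with a log2 fold change of -1.22 (SE 0.08, limma adjusted p = 7.35e-07), while GAGE10 rose with 1.93 (SE 0.14, adjusted p = 1.00e-06) and GAGE12E with 1.72 (SE 0.23, adjusted p = 7.56e-05). In CO against TSW the signs were opposite, with 1.22 (SE 0.08, limma adjusted p = 1.16e-05) for GAGE2A, -2.49 (SE 0.14, adjusted p = 2.38e-06) for GAGE10 and -2.04 (SE 0.23, adjusted p = 3.12e-04) for GAGE12E. With no filter, at the same fold changes, limma gave adjusted p-values for GAGE10 and GAGE12E of 4.36e-04 and 0.00584 in TSW against MONO and of 0.00374 and 0.0172 in CO against TSW. None of them was called in CO against MONO with the settings used here. There GAGE2A had -0.0019, which turned to 0.11 with median-of-ratios scaling, 0.13 with quantile normalization and 0.02 without RPMI8226 MONO replicate 2. GAGE10 had -0.56 (SE 0.14, limma adjusted p = 0.00437), which was called at -1.53 with a pseudocount of 0.1, -0.59 with quantile normalization, -1.74 by voom and -0.61 without RPMI8226 MONO replicate 1, so this call depends on the settings. GAGE12E had -0.32, which was called at -0.77 without RPMI8226 MONO replicate 2 and turned to 0.14 without RPMI8226 MONO replicate 1. GAGE2B in TSW against MONO had -0.04, was called at -0.65 without RPMI8226 MONO replicate 1 and had 0.57 without RPMI8226 MONO replicate 2 and 0.03 without RPMI8226 TSW replicate 2. For GAGE2B in CO against MONO the values were -0.04 with all libraries, -0.66 (called) and 0.57 without the same MONO libraries in turn, and 0.08 without RPMI8226 CO replicate 1.

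The sum over the copies varied less than its parts. All 12 GAGE genes summed to 35.7 and 37.4 RPKM in MONO, 26.8 and 26.8 in TSW, and 34.3 and 35 in CO. TSW lay under both other conditions with no overlap, and the log2 fold change of the sum, an alternative chosen after seeing the data, was -0.43 in TSW against MONO (SE 0.07, limma adjusted p = 2.88e-04) and 0.36 in CO against TSW (SE 0.07, adjusted p = 0.00493), under the fold threshold in both. The sum of the 8 near-identical copies gave -0.36 and 0.32. GAGE2A held 81.2% and 80.9% of the GAGE PETs in MONO, 48.4% and 41% in TSW, and 86.2% and 84.9% in CO. The Wilson intervals at 95% were 42.5 to 54.3% and 35.3 to 47% in TSW, and their lowest bound in MONO and CO was 75.9%. GAGE10 held 18.2% and 25.7% of these PETs in TSW and 0.56 to 2.34% in the other libraries.

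**Figure D4:**
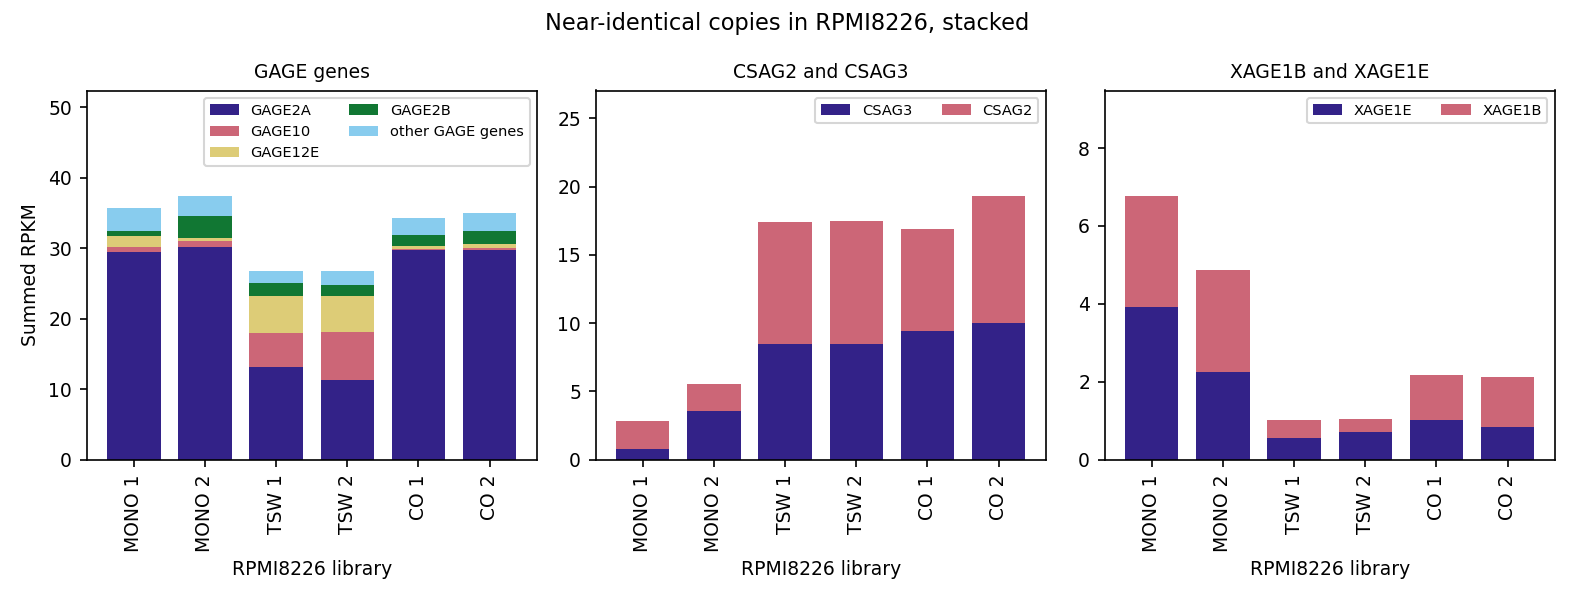
Level of near-identical copies in each RPMI8226 library (horizontal axis) as stacked bars of summed RPKM (vertical axis, from 0) for the GAGE genes, CSAG2 with CSAG3, and XAGE1B with XAGE1E. The GAGE bars are 26.8 RPKM high in TSW and 34.3 to 37.4 elsewhere, with a smaller GAGE2A part in both TSW libraries, the CSAG bars are lowest in MONO, and the XAGE1 bars are highest in MONO.

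Values of a ribosomal pseudogene are given beside the GAGE result. RPS14P3, a processed copy of RPS14 outside the families that was chosen after its values were seen, had 94.8 and 93.6 RPKM in the TSW libraries of RPMI8226 and 84.2 in MONO replicate 2 of MM.1S. It had 2.2 to 6.44 RPKM in the other 12 libraries, while RPS14 itself had 752 to 1470 RPKM over all 15. The other 26 ribosomal pseudogenes in the tables summed to 976 and 981 RPKM in MONO, 848 and 916 in TSW, and 972 and 976 in CO of RPMI8226, with TSW under both other conditions and no overlap. In MM.1S these 26 summed to 2650, 1510 and 1820 RPKM in the MONO libraries, so they also varied within a condition. The part of read placement between copies in the GAGE result was not tested. In MM.1S MONO replicate 2 no GAGE gene had a PET, so the copies could not be compared there.

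CTAG1A and CTAG1B encode the antigen NY-ESO-1 with identical coding sequences. CTAG1A had 13 and 12.1 RPKM in MONO, 13.6 and 13 in TSW, and 10.7 and 11.3 in CO of RPMI8226. CTAG1B had 7.93 and 9.93 RPKM in MONO, 8.94 and 9.17 in TSW, and 7.13 and 9.18 in CO. The summed copies had 20.9 and 22 RPKM in MONO, 22.5 and 22.2 in TSW, and 17.8 and 20.5 in CO. Both TSW libraries lay above those of MONO and CO, and no call was made. The sum had log2 fold changes of 0.06 in TSW (SE 0.08, limma adjusted p = 0.569) and -0.16 in CO (SE 0.08, adjusted p = 0.113) against MONO, and -0.22 in CO against TSW (adjusted p = 0.0816). For the single copies in CO against TSW, CTAG1A had -0.26 (SE 0.08, limma adjusted p = 0.0423), under the fold threshold, and CTAG1B had -0.14 (adjusted p = 0.424). CTAG2, related to both, had a mean of 0.0723 RPKM.

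MAGEA9 and MAGEA9B are inverted copies with identical coding sequences and identical windows before their starts. MAGEA9 had 5.51 and 6.41 RPKM in MONO, 4.92 and 5 in TSW, and 6.27 and 7.45 in CO. MAGEA9B had 4.67 and 3.51 RPKM in MONO, 4.92 and 5.18 in TSW, and 4.41 and 4.47 in CO. Their sum was 10.2 and 9.92 RPKM in MONO, 9.85 and 10.2 in TSW, and 10.7 and 11.9 in CO. MAGEA9 lay lower and MAGEA9B higher in TSW than in MONO, with no overlap for either, and their sum overlapped. The log2 fold changes in TSW against MONO were -0.22 for MAGEA9 (limma adjusted p = 0.0922) and 0.26 for MAGEA9B (adjusted p = 0.0696), and -0.0042 for the sum (adjusted p = 0.97). Leaving out each library in turn, MAGEA9 ran from -0.31 to -0.13 and MAGEA9B from 0.09 to 0.42. In CO against TSW, MAGEA9 had 0.39 (SE 0.11, limma adjusted p = 0.0216), under the fold threshold. There MAGEA9B had -0.15 (limma adjusted p = 0.349) and the sum 0.16 (adjusted p = 0.2). MAGEA9 held 54.1% and 64.6% of the PETs of the pair in MONO, 50% and 49.1% in TSW, and 58.7% and 62.5% in CO. MAGEA3 and MAGEA6, copies with 98.1% identity, together had 0.243 to 0.744 RPKM in the RPMI8226 libraries and lay under the filter.

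The genes around the families were taken from lists of known regulators and partners. Of 21 tested DNA methylation and chromatin regulators in RPMI8226, limma called 8 lower and 0 higher in TSW against MONO, beside 17.9% lower and 14.5% higher of all genes, with 2 higher at an unadjusted p under 0.05 and 0 higher by voom. In CO against MONO, 9 were lower and 1 higher, beside 22.9% and 16.4% of all genes, and with median-of-ratios scaling 6 were lower in TSW and 8 in CO. Between CO and TSW 0 were called, with 6 at an unadjusted p under 0.05 and 0 by voom. Among the most abundant genes called, HDAC1, a histone deacetylase, had -0.80 in TSW and -1.06 in CO, and KDM1A, a histone demethylase, had -0.60 and -0.87. DNMT1, the maintenance DNA methyltransferase, fell in CO with -0.65 (SE 0.09, limma adjusted p = 6.14e-05) and had -0.40 in TSW, and CTCF had -0.90 and -0.84. In MM.1S, 22 were tested, with 0 higher and 1 lower in TSW (all genes 6.48% and 4.16%), 1 higher and 3 lower in CO (7.13% and 4.65%), and 0 in CO against TSW, where 1 had an unadjusted p under 0.05 and voom called 0. For TSW in MM.1S, 1 was higher at an unadjusted p under 0.05, and voom called 0 higher and 3 lower, as did median-of-ratios scaling. The most abundant of these were MBD2 and EHMT2, with -0.61 and -0.60 in CO and -0.58 each in TSW against MONO, the latter just under the fold threshold (limma adjusted p = 0.00449 and 0.00116), UHRF1, which guides DNMT1 to newly copied DNA, with -1.12 in TSW and -1.13 in CO, and ATF7IP with 0.77 in CO.

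Of 12 tested partners of MAGE proteins in RPMI8226, 6 were lower in TSW and 7 in CO against MONO by limma, beside 17.9% and 22.9% of all genes. With median-of-ratios scaling 4 and 5 were lower, and with quantile normalization 5 and 6. None was higher, with 0 at an unadjusted p under 0.05 and 0 by voom in either comparison, and 0 were called in CO against TSW, with 6 at an unadjusted p under 0.05 and 0 by voom. TRIM28, a ligase partner of MAGE proteins, had means of 219 RPKM in MONO, 114 in TSW and 79.6 in CO, with log2 fold changes of -0.94 and -1.45 against MONO. USP7 had -0.70 and -0.75, and NSMCE1 had -0.27 and -0.59, of which the first was under the fold threshold. In MM.1S, 0 of 12 partners were called in TSW, where 7 had an unadjusted p under 0.05 and voom called 1. In CO against MONO, TRIM28 with -0.65 and SKP2 with -0.66 were lower, beside 4.65% of all genes, and quantile normalization called 1 lower. In CO against TSW 0 were called, with 0 at an unadjusted p under 0.05 and 0 by voom.

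MAGE genes outside the rule that are active in most tissues were tested as well. For these, the other cancer-testis genes and the plasma cell markers, the shares of all genes called higher and lower follow. In RPMI8226 they were 14.5% and 17.9% in TSW against MONO, 16.4% and 22.9% in CO against MONO, and 1.9% and 2.39% in CO against TSW. In MM.1S they were 6.48% and 4.16%, 7.13% and 4.65%, and 0.374% and 0.0394% in the same order. In RPMI8226, of 4 tested, MAGED2 rose in both comparisons with MONO (1.06 and 0.86) and MAGEH1 fell (-0.62 and -0.80). The call of MAGEH1 in TSW was lost with median-of-ratios and with quantile scaling. In this line limma called 0 in CO against TSW, with 1 at an unadjusted p under 0.05 and 0 by voom. In MM.1S, 0 of 5 were called in each comparison, with 1, 3 and 0 at an unadjusted p under 0.05 and 0 by voom. Of other cancer-testis genes, 37 are in the tables. In MM.1S, 6 were tested, and PRAME rose in TSW and CO (0.81 and 0.82) and TTK in CO (0.70). In RPMI8226, of 5 tested, PBK fell in TSW and CO (-0.63 and -0.75), TTK in both (-0.93 and -0.70) and PASD1 in CO (-0.68), and with median-of-ratios scaling 1 was lower in TSW and 2 in CO. In CO against TSW 0 were called in either line, with 0 and 1 at an unadjusted p under 0.05 and 0 by voom.

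The plasma cell markers in the tables were on in both lines, except SLAMF7 in RPMI8226. Of 9 markers listed, 8 are in the tables, and in MM.1S 8 were tested, with 2 higher and 2 lower in TSW and in CO against MONO. In RPMI8226 7 were tested, with 5 higher and 2 lower in both comparisons. SLAMF7, the other marker in the tables, lay under 1 RPKM in every RPMI8226 library and above it in every MM.1S library. The listed marker that is not in the tables could not be judged in either line. Of all genes, 14.5% were called higher and 17.9% lower in TSW, and 16.4% and 22.9% in CO. In CO against TSW limma called 0 in either line, with 3 and 6 at an unadjusted p under 0.05 and 0 by voom. JCHAIN had the highest mean in both lines, 2600 and 2250 RPKM, and fell in MM.1S (-0.85 and -0.91) and rose in RPMI8226 (0.80 and 1.02), while XBP1 rose in both lines, with 0.87 and 0.77 in MM.1S and 1.24 and 1.08 in RPMI8226. TNFRSF17, the surface antigen BCMA, was called lower in both lines, with -1.80 and -2.14 in MM.1S, and IRF4 fell in RPMI8226 (-0.94 and -0.93).

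Stromal markers stood higher in CO. Of 23 markers in the tables, 13 were tested in MM.1S, with 12 higher in CO than in MONO and 13 higher than in TSW, and 11 in RPMI8226, with 10 and 8 higher. Among all genes, 7.13% and 0.374% were called higher in these comparisons in MM.1S, and 16.4% and 1.9% in RPMI8226. Several, such as MMP1, CXCL8 and TFPI2 in MM.1S, passed the filter only through CO and had to be higher there, so the levels are given for the whole list. At least 1 RPKM was reached by 2 to 3 of the 23 in the MONO and TSW libraries of MM.1S and by 15 to 16 in CO, and in RPMI8226 by 3 to 5 and by 13 to 15. FN1 was lower in RPMI8226, at -0.99 in CO and -1.19 in TSW against MONO, while LOX and CXCL8 rose there in TSW. In TSW against MONO of MM.1S limma called 0, with 3 at an unadjusted p under 0.05 and 3 by voom. The summed level was 6.56 to 10.7 RPKM in the MONO and TSW libraries of MM.1S and 172, 186 and 158 in CO. Without FN1, which RPMI8226 expresses itself at 1680 to 4310 RPKM, the sum in RPMI8226 was 4.4 and 4.53 RPKM in MONO, 8.42 and 8.63 in TSW, and 135 and 196 in CO. The most abundant marker in MM.1S CO was MMP1, with a mean of 44.2 RPKM there and in CO of RPMI8226 and 0 PETs in MONO and TSW, and POSTN had no PET in any CO library. Their part in the CO results above was not tested. In bulk RNA, fewer cells with a transcript and less of it per cell cannot be told apart.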

How the data were processed

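RNA of 15 libraries from 2 myeloma lines was analysed from 1 table per line of 20468 RefSeq genes. Per the labels, the authors aligned paired reads with Subread to hg38 and counted PETs with featureCounts. The deposited values are log2 values of RPKM, made by the authors as log2(RPKM + 1) with 0.0001 added, which was read off the values. RPKM, as deposited by the authors on that log2 scale, was recovered by undoing this, and whole PETs were recovered from RPKM and gene length (100% of values above 0 within 0.05 of a whole PET). The number of value columns of no sample was 0. Recovered depth was 9008972 to 19050755 PETs per library.

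Genes with a mean of at least 1 RPKM over a line's libraries were tested on log2(RPKM + 1) with limma 3.58.1 in R 4.3.3 (moderated t, trend), with 3 conditions in 1 fit per line and Benjamini-Hochberg adjustment per comparison. A gene was called when limma gave an adjusted p under 0.05 and the fold change exceeded 1.5. Lines were compared by an interaction over 15 libraries, called by adjusted p alone. The fit was tested on simulated data with 100 genes changed 2-fold and another 100 changed 3-fold in the comparisons with CO. The simulated spread was 1 chosen value for all genes, so recovery in the real libraries may differ. Of the genes changed 2-fold, for CO against MONO and CO against TSW, it recovered 93 and 94 in MM.1S, and 91 each in RPMI8226. Of those changed 3-fold, 99 were recovered in each of these comparisons in both lines. False calls numbered 5 and 1 in MM.1S, and 5 and 3 in RPMI8226. No gene was changed in TSW against MONO, so recovery was not measured there. Pairing by replicate number was checked in RPMI8226 by correlating the deviations of libraries with the same number from their condition means, which gave 0.164 to 0.271 over 3 pairs of conditions, a hint from the data and not from the labels. With 2 libraries per condition the deviations of replicate 2 mirror those of replicate 1 and add no pair. The replicate block was fitted as an alternative. Alternatives were a pseudocount of 0.1, other filters, median-of-ratios and quantile scaling, a replicate block, 2 conditions per fit, leaving out each library, summed copies, voom, and no fold threshold. Sums over all GAGE genes, and leaving out copies, were chosen after seeing the data.

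Copies were defined by at least 95% identity of GENCODE coding sequences, aligned with edlib 1.3.9.post1, rather than of RefSeq proteins. Tables and figures used Python 3.11.15, numpy 2.4.6, pandas 2.3.3, scipy 1.17.1 and matplotlib 3.10.9. Members and lists were chosen with earlier results of these data known. From each list, at most 4 called genes of highest mean are named. Items withheld for evaluation are not reported here. Wilson intervals and limits for 0 PETs cover counting error only.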

Additional observations from a re-analysis of the deposited data

Results flagged for a closer look

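MAGEA1 differed between the cell lines in its response to culture with HS5 cells, and was set apart because the test of that difference passed at an adjusted p under 0.05. The log2 fold change of RPMI8226 minus that of MM.1S was -0.59 in TSW against MONO (SE 0.11, limma adjusted p = 7.36e-04) and -0.80 in CO against MONO (SE 0.11, limma adjusted p = 4.47e-05). In RPMI8226, MAGEA1 had 48.2 and 48.2 RPKM in MONO, 28.8 and 29.1 in TSW, and 26.1 and 26.1 in CO. In MM.1S it had 69.6 to 75.7 RPKM in MONO, 62.5 to 69.2 in TSW and 66 to 71.2 in CO. Of 9397 genes tested in both lines, 38.5% and 44.5% passed the same test, and MAGEA1 was 1 of 2 members tested. The TSW and CO values share the MONO libraries.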

How the results depend on the processing

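In RPMI8226 TSW against MONO, 4 members were called higher and 4 lower. Higher became 2 at a mean RPKM of at least 5, 1 with near-identical copies summed, 2 with all GAGE genes summed and 0 with copies left out. Lower became 2 at a mean of at least 5, 2 with copies summed, 1 with copies left out and 7 with no fold change threshold. In CO against MONO, higher went from 2 to 1 with copies summed and 0 with copies left out, and lower from 4 to 2 at a mean of at least 5 and 2 with copies left out. In CO against TSW, higher went from 2 to 1 at a mean of at least 5, 1 with copies summed, 1 with all GAGE genes summed and 0 with copies left out. Lower went from 2 to 0 at a mean of at least 5, 0 with copies summed, 0 with all GAGE genes summed, 0 with copies left out and 4 with no fold change threshold. With no fold change threshold, higher and lower together, 12 members passed in TSW against MONO, 9 in CO against MONO and 7 in CO against TSW. Shares of all genes called are not given for these alternatives, so the counts describe the members only. The all-GAGE sum and the omission of copies were chosen after seeing the data. Members on in MM.1S were 5 at a mean RPKM of at least 0.1 and 1 at a mean of at least 5.

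Some fold changes that were not called changed sign. MAGEA1 in MM.1S CO against MONO was 0.03 with quantile normalization. In RPMI8226 TSW against MONO, GAGE2B was 0.05 with a pseudocount of 0.1 and 0.01 with median-of-ratios scaling. In CO against MONO, GAGE2B was 0.04 with a pseudocount of 0.1 and 0.03 with median-of-ratios scaling, CSAG1 was 0.02 with quantile normalization, and GAGE2A was 0.11 with median-of-ratios scaling and 0.13 with quantile normalization. In CO against TSW, GAGE2B was 0.02 with median-of-ratios scaling.

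Leaving out each library in turn gave these ranges across 0. In MM.1S CO against TSW, SSX2IP ran from -0.06 to 0.08. In RPMI8226 TSW against MONO, CTAG1B ran from -0.12 to 0.17 and GAGE2B from -0.65 to 0.57. In CO against MONO, CTAG1B ran from -0.28 to 0.04, GAGE12E from -0.77 to 0.14, GAGE2A from -0.02 to 0.02, GAGE2B from -0.66 to 0.57, MAGEA9B from -0.06 to 0.27 and SSX2IP from -0.12 to 0.12. In CO against TSW, CSAG2 ran from -0.23 to 0.05, CTAG1B from -0.31 to 0.02, GAGE2B from -0.12 to 0.11, MAGEA12 from -0.01 to 0.08 and MAGEA4 from -0.03 to 0.06.

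The replicate block changed no call of a member in either line. In MM.1S, libraries with the same replicate number had correlations of -0.38 to 0.286 over 9 pairs, and a library correlated best with its own number in 7 of 18 cases. Scaling moved the share of higher calls among all calls in RPMI8226 CO against TSW from 44.2% to 57.8% with median-of-ratios and 59% with quantile normalization, in TSW against MONO from 44.7% to 52.1% and 48.5%, and in CO against MONO from 41.7% to 51.5% and 47.8%. The cause was not tested.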
